A study of Mus musculus with 9 samples.

Results

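The comparison described here is that of mouse embryonic stem cells given CHIR for 30 min with untreated control cells of the same line, read across all genes that RNA sequencing measured. It rests on 3 CHIR and 3 control libraries of the 9 in the series. Its members are the 15366 of 52264 rows of the gene count table that passed a filter on low counts. The other 3 libraries came from cells given BRD0705 and serve here as a second comparison. All 3 groups carry the genotype β-catenin-/-, so the stem cells of no group have an intact gene for β-catenin. That genotype is given for the stem cells, and the libraries also hold RNA of feeder fibroblast markers. Per the labels, all cells were grown on feeder-treated dishes, and naive cells were expanded with 3 µM CHIR-99021, 1 µM PD03, which inhibits MEK, and 40 ng/ml LIF. The medium of every group was changed to N2B27 overnight before treatment, so the CHIR cells met again a compound named in their expansion medium. The labels do not give the doses used for the 30 min and name no solvent for the control. They do not say whether the line is 1 clone. Sample titles call the controls untreated, so effects of CHIR, of any solvent and of the addition itself cannot be told apart.

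GSK3 is a kinase with a pair of closely related forms, GSK3α and GSK3β, which are active in resting cells and phosphorylate many proteins, among them β-catenin, glycogen synthase, Myc and Jun. CHIR-99021 blocks both forms, whereas BRD0705 is selective for GSK3α. In embryonic stem cells GSK3 inhibition is best known for stabilising β-catenin, which relieves repression by TCF7L1 and so favours the naive state; cells without β-catenin leave the other substrates of the kinase to be seen. The series concerns GSK3α in stem cells. Within 30 min, RNA levels can change mainly for short-lived transcripts and for strongly induced genes.

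Depth was 17359422 to 20773337 counts per library. Replicates are samples the labels number 1 to 3 in each group. Nothing says that they came from separate cultures, so p-values measure the spread between these samples, which may be technical. On the first and second principal components of log2 CPM, CHIR libraries 1 to 3 lay at 30.2 and -23.5, 16.4 and 12.9, and 15.5 and 22.1. The Spearman correlation of a library's deviations from gene means with GC content was 0.193, -0.291 and -0.162 in controls 1 to 3. In CHIR libraries 1 to 3 it was -0.09, -0.12 and -0.05. The deleted gene, Ctnnb1, had 348, 350 and 331 CPM (the count scaled to a common library size) in the controls and 370, 371 and 341 CPM in the CHIR libraries. Which exons are deleted is not stated and a total per gene does not show it, so these values do not check the genotype. The part of feeder RNA in these values was not tested. The 10 embryonic stem cell markers summed to 5207 to 5314 CPM in the controls and 5346 to 5521 CPM in the CHIR libraries, and none was at 0 in every library. All 10 markers of feeder fibroblasts were measured too, with sums of 2394 to 2904 CPM in the controls, 2681 to 3199 CPM in the CHIR libraries and 2989 to 3066 CPM in the BRD0705 libraries. The feeder sums of control and CHIR libraries thus overlapped. In bulk RNA, fewer cells of a type and less RNA per cell cannot be told apart.

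CHIR changed 968 genes, 6.3% of those tested, at an adjusted p under 0.05 (edgeR's quasi-likelihood test, Benjamini-Hochberg adjustment, all 9 libraries in the fit). Of these, 387 were higher (2.52% of genes tested) and 581 lower (3.78%). Most changes were small: the median log2 fold change was 0.28 among the higher genes and -0.46 among the lower ones, against -0.01 over all genes tested. Changes as large as 1 on the log2 scale, in either direction, were seen in 77 genes (0.501%), 8 higher and 69 lower. Many of the 69 were scarce transcripts, with a median level of 0.24 on the log2 CPM scale. The CPM of the CHIR and control libraries did not overlap for 955 of the 968 genes, and over all genes tested they did not overlap for 25.1%. The 13 others included Col1a1, Col5a1, Lox and Bgn, which encode matrix proteins made by fibroblasts and were chosen for mention after their values were seen. The count was 514 without CHIR replicate 2, 523 without control replicate 2, 561 without control replicate 3 and 633 without CHIR replicate 1. It was 437 once each library's feeder marker level entered the model as a covariate. The split moved with scaling: 252 of 954 genes were higher with library size only, and 466 of 923 with DESeq2. In all, 338 of the 968 passed whichever of the 9 libraries was dropped, and each gene whose values are given below as having risen or fallen is among them unless a sentence says otherwise. Counts over gene lists are those of the fit to all 9 libraries, and many include members that are not among the 338. The shares over all genes tested, 2.52% higher and 3.78% lower, are the background for each of these counts. Genes named below by rank were chosen among those without overlap, so their lack of overlap adds no support. For called genes named from lists it adds little, since 955 of the 968 did not overlap.

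**Figure D1:**
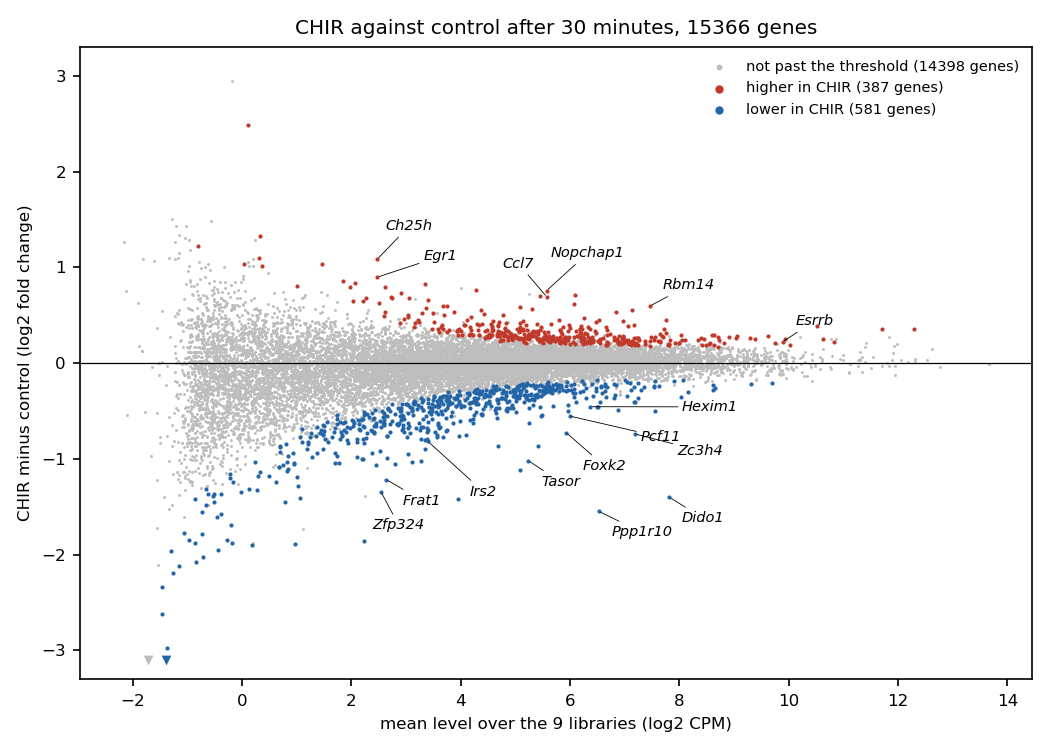
Each point is 1 of 15366 genes, with its mean level over the 9 libraries (log2 CPM) on the x axis and CHIR minus control (log2 fold change) on the y axis. The 387 genes higher in CHIR are red, the 581 lower are blue, and 2 scarce genes beyond the lower end of the axis are drawn as triangles at its edge. Ppp1r10 and Dido1 lie far below other genes of their level.

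Dido1 and Ppp1r10 had the smallest p among the genes that fell. Ppp1r10 encodes PNUTS, which brings protein phosphatase 1 to RNA polymerase II and slows it for termination. It lies at chr17:35916512-35932283 (RefSeq annotation, GRCm38.p6). Ppp1r10 stood at 125, 120 and 132 CPM in the control libraries and at 39.9, 44.8 and 44.3 CPM in the CHIR libraries (log2 fold change -1.55 ± 0.06 SE, adjusted p = 1.96e-11). Every CHIR library was below every control, and the BRD0705 libraries, at 154, 143 and 140 CPM, were above them. Dido1, at chr2:180657963-180710068, encodes a chromatin reader with a TFIIS-like domain that binds RNA polymerase II. It had 310, 289 and 321 CPM in the controls and 114, 115 and 119 CPM with CHIR (log2 fold change -1.40 ± 0.06 SE, adjusted p = 1.96e-11). The groups were again far apart, while BRD0705 gave 339, 322 and 306 CPM, a range that overlapped the controls. Dido1 was the one member to pass of 18 tested in a list of elongation factors with TFIIS-type domains, whose median log2 fold change was -0.01.

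Zc3h4, at chr7:16399583-16437696, encodes a zinc finger protein that stops unproductive transcription outside genes. Its level was 170, 169 and 170 CPM in the controls and 101, 102 and 101 CPM in the CHIR libraries (log2 fold change -0.74 ± 0.05 SE, adjusted p = 8.49e-08). Pcf11, a termination factor that binds the tail of the polymerase, went from 68.1, 74.5 and 73.4 CPM to 51.3, 47.6 and 48.2 CPM (log2 fold change -0.55 ± 0.06 SE, adjusted p = 3.81e-05). Neither gene's CHIR values overlapped its controls. Ssu72, a phosphatase of the same polymerase tail, fell less (log2 fold change -0.29 ± 0.06 SE, adjusted p = 0.00796). In the list of PNUTS-PP1 and termination factors, 4 of 17 members tested fell (23.5%, against 3.78% of all genes) and 0 rose. The 4 were Ppp1r10, Pcf11, Ssu72 and Rprd1a, which binds the polymerase tail. Rprd1a (log2 fold change -0.30 ± 0.07 SE, adjusted p = 0.0102) did not pass without CHIR replicate 3 or without control replicate 2, each of which left 3 called. The list's median log2 fold change was -0.03 against -0.01 over all genes, so most of its members did not share the fall. Of cleavage and polyadenylation factors, Cstf3, a subunit of the cleavage stimulation factor, fell (log2 fold change -0.35 ± 0.06 SE, adjusted p = 0.00178). The list's other called member of 18 tested, Cpsf4, was higher (log2 fold change 0.22 ± 0.06 SE, adjusted p = 0.0247) but did not pass without CHIR replicate 2, control replicate 2 or control replicate 3.

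Activators and the inhibitor of the elongation kinase moved in opposite directions. P-TEFb, the kinase of CDK9 with cyclin T, releases paused polymerase, and HEXIM1 with 7SK RNA holds it inactive. Hexim1 measured 101, 86.4 and 89.9 CPM in the controls and 68.4, 67.6 and 66.04 CPM in the CHIR libraries (log2 fold change -0.46 ± 0.07 SE, adjusted p = 0.000428). Ccnt2, which encodes cyclin T2, measured 74.6, 84.9 and 86.1 CPM and 112, 110 and 112 CPM (log2 fold change 0.44 ± 0.06 SE, adjusted p = 0.000221). The inhibitor was thus lower and the cyclin higher in every CHIR library than in any control. Cyclin T1 rose as well, with Ccnt1 at 71.2, 76.3 and 76.9 CPM in the controls and 93.5, 96.3 and 96.7 CPM with CHIR (log2 fold change 0.35 ± 0.06 SE, adjusted p = 0.00174). Cdk12, a kinase of elongating polymerase, rose from 192, 187 and 192 CPM to 240, 266 and 270 CPM (log2 fold change 0.45 ± 0.07 SE, adjusted p = 0.000548). Cdk9 itself had 102, 93.5 and 99.7 CPM and 107, 112 and 115 CPM and did not pass (log2 fold change 0.18 ± 0.06 SE, adjusted p = 0.0846). In all, 3 of 24 members tested rose (12.5%, against 2.52% of all genes) and 1 fell (4.17%, against 3.78%), with a median log2 fold change of 0.095. Among 45 Mediator and Integrator subunits, Med22 (log2 fold change 0.42 ± 0.06 SE) and Med20 (0.39 ± 0.08 SE), both of the Mediator head, rose. The Integrator subunits Ints6 and Ints5 fell, with 1 of them left without CHIR replicate 2 or any 1 control library.

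**Figure D2:**
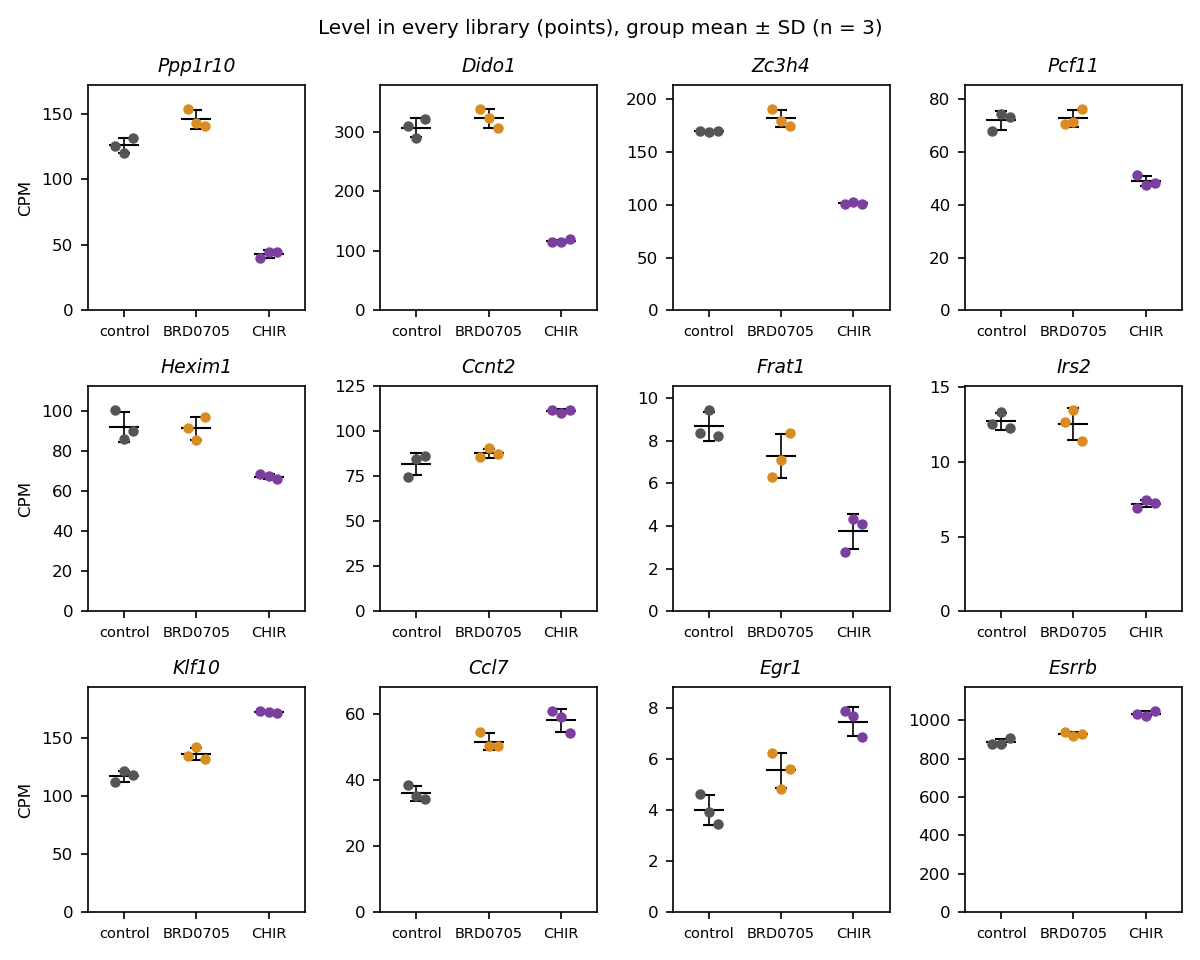
CPM on the y axis in every library, as points, for 12 genes in the control, BRD0705 and CHIR groups, with the group mean and SD (n = 3) in black. Ppp1r10, Dido1, Zc3h4, Pcf11, Hexim1, Frat1 and Irs2 are lowest in CHIR, and in each of the 12 panels no CHIR value overlaps a control value.

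Rbm14, Rbm15, Nopchap1 and Nop56 were among the rising genes. Rbm14, an RNA-binding protein of nuclear paraspeckles, had 150, 158 and 153 CPM in the controls and 232, 228 and 236 CPM with CHIR (log2 fold change 0.59 ± 0.06 SE, adjusted p = 4.99e-06). Rbm15, which guides the RNA methylation machinery, had 18.9, 19.3 and 20.9 CPM and 30.8, 27.1 and 26.4 CPM (log2 fold change 0.51 ± 0.08 SE, adjusted p = 0.000548). Both were higher in each CHIR library than in any control. Nopchap1 helps to assemble small nucleolar ribonucleoproteins, the particles that guide modification of ribosomal RNA. Its values of 37.7, 42.7 and 40.5 CPM in the controls and 70.9, 67.5 and 65.8 CPM with CHIR gave the smallest p among the higher genes (log2 fold change 0.76 ± 0.06 SE, adjusted p = 7.27e-07). Nop56, a core protein of those particles, rose modestly (log2 fold change 0.27 ± 0.06 SE, adjusted p = 0.00932). Of 35 ribosome biogenesis factors tested 2 rose, Nop56 and Nop2, and 0 fell, with a median log2 fold change of 0.05. The count was 1 without CHIR replicate 2 or 3 or any 1 control library, and with the feeder covariate.

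Some genes carry small nucleolar RNAs in their introns. In the list of these host genes, which also holds other nuclear noncoding RNAs, 5 of 26 members tested rose (19.2%, against 2.52% of all genes). In this list 0 members fell, and the median log2 fold change was 0.20. Zfas1 stood at 12.5, 12.98 and 13.4 CPM in the controls and 18.5, 19.4 and 18.4 CPM in the CHIR libraries (log2 fold change 0.53 ± 0.08 SE, adjusted p = 0.000548). Snhg17 (0.35 ± 0.07 SE) and Snhg1 (0.34 ± 0.07 SE) rose too, and Snhg1 lost its call with the feeder covariate (adjusted p = 0.0521). The count of higher members was 2 with the feeder covariate and 3 without CHIR replicate 1.

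Splicing factors split. Of 22 SR proteins and their kinases tested, 4 rose (18.2%, against 2.52% of all genes) and 3 fell (13.6%, against 3.78%). The median log2 fold change was 0.06. Clk3, a kinase of SR proteins, rose from 37.2, 35.8 and 35.1 CPM to 43.5, 48.3 and 44.4 CPM (log2 fold change 0.33 ± 0.06 SE, adjusted p = 0.00311). Its relative Clk1 stood at 55.7, 60.3 and 55.9 CPM in the controls and 47, 48.7 and 42.9 CPM with CHIR, a fall (log2 fold change -0.31 ± 0.06 SE, adjusted p = 0.00724) that did not pass without control replicate 2, which left 0 members lower. Without control replicate 3, 1 member was higher, and with the feeder covariate 1 was higher and 1 lower. Among 20 hnRNP proteins 2 fell and 0 rose, led by Hnrnpdl at 270, 282 and 307 CPM in the controls and 236, 211 and 225 CPM with CHIR (log2 fold change -0.35 ± 0.06 SE, adjusted p = 0.0012); the other, Hnrnpa1, did not pass without CHIR replicate 2, CHIR replicate 3 or control replicate 3. Cirbp, a cold-inducible RNA-binding protein, rose (log2 fold change 0.32 ± 0.07 SE, adjusted p = 0.00747). Rows of a single symbol can also part: the table has a pair of rows for Zc3h11a, of which Zc3h11a had a log2 fold change of -1.11 and Zc3h11a.1 one of 0.71. Summed, they measured 103 ± 2.32 CPM in the controls and 116 ± 3.42 CPM in the CHIR libraries (SD, n = 3). How reads were shared between the rows was not tested.

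Zinc finger genes formed the largest list, with more falls than rises. Many encode KRAB repressors that bind transposon DNA. Of 445 tested whose symbols carry a zinc finger number, 42 fell (9.44%) and 10 rose (2.25%), against 3.78% and 2.52% of all genes, and the median log2 fold change was -0.06. Without control replicate 3, 24 fell and 6 rose, and with the feeder covariate 23 fell and 4 rose. Zfp324 had 8.53, 7.31 and 7.93 CPM in the controls and 3.04, 3.19 and 3.12 CPM in the CHIR libraries (log2 fold change -1.35 ± 0.13 SE, adjusted p = 7.97e-06). Zfp936 had 43.2, 46.3 and 44.3 CPM and 31.4, 30.3 and 24.8 CPM (log2 fold change -0.63 ± 0.08 SE, adjusted p = 7.88e-05), and Zfp93 had 12.3, 12.8 and 12.5 CPM and 6.03, 8.09 and 6.12 CPM (log2 fold change -0.89 ± 0.12 SE, adjusted p = 0.00018). None of these values overlapped between groups. Among the 10 that rose, Zfp580 went from 28.4, 30.5 and 24.3 CPM to 38.1, 45.5 and 41.1 CPM (log2 fold change 0.58 ± 0.08 SE, adjusted p = 0.000447). The symbol pattern also catches Zfp36l2, an RNA-binding protein of another zinc finger class. Tasor, a scaffold of the HUSH complex that silences transposons together with such repressors, fell from 42, 52.1 and 50.3 CPM to 25.8, 22.4 and 22.96 CPM (log2 fold change -1.02 ± 0.08 SE, adjusted p = 7.27e-07). Among chromatin genes, the acetyltransferase gene Kat8 (log2 fold change -0.38 ± 0.07 SE) and the linker histone gene H1f0 (-0.36 ± 0.06 SE) fell, and the Polycomb-associated gene Asxl2 rose (0.29 ± 0.06 SE).

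Other falls with small p lay outside the lists. Dusp27, a gene of the dual-specificity phosphatase family, had 53.8, 54.01 and 56.7 CPM in the controls and 28.96, 31.3 and 29.96 CPM with CHIR (log2 fold change -0.87 ± 0.06 SE, adjusted p = 8.49e-08). Fam83h had 34.7, 29.5 and 28.4 CPM and 15.9, 19.3 and 15.7 CPM (log2 fold change -0.86 ± 0.09 SE, adjusted p = 1.74e-05). Fem1a, which selects substrates for a cullin ubiquitin ligase, had 49.1, 47.95 and 48.2 CPM and 34.6, 30.8 and 33.5 CPM (log2 fold change -0.55 ± 0.06 SE, adjusted p = 3.29e-05). In all 3 the highest CHIR library was below the lowest control, which the rule that picked them required. Skida1 (-1.07 ± 0.14 SE), the sulfotransferase gene Chst3 (-1.04 ± 0.14 SE), Tlr5 (-1.29 ± 0.24 SE) and Synpo2l (-1.41 ± 0.26 SE) were among the 15 lowest log2 fold changes at lower levels of expression.

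Genes that fell more often had few exons. Of lower genes with a matched transcript, 11.4% had 1 exon, against 6.08% of genes that did not pass and 4.15% of higher genes. With 1 to 3 exons the shares were 31.2%, 19.3% and 15.8%. Their median transcript length was 3967 bases, against 3209 bases for genes that did not pass and 3170 bases for higher genes. The genomic span separated the higher genes instead, with a median of 14844 bases against 21998 bases for lower genes and 22118 bases for the rest. Median GC content was close in all 3, at 50.5% for lower, 50.6% for uncalled and 51.8% for higher genes. The median level was 3.79 on the log2 CPM scale for lower genes and 5.65 for higher genes, so the groups also differ in abundance, and its part in these shares was not tested. By gene type, 31 of 524 long noncoding RNA genes fell (5.92%) and 10 rose (1.91%), with a median log2 fold change of -0.14, while 516 of 13795 protein-coding genes fell (3.74%) and 360 rose (2.61%).

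The genes of both GSK3 forms did not pass the test, whereas Frat1, a gene of a GSK3-binding protein, fell. Gsk3a had 225, 181 and 200 CPM in the controls and 204, 229 and 243 CPM with CHIR (log2 fold change 0.16 ± 0.08 SE, adjusted p = 0.291). Gsk3b had 74.9, 82.2 and 78.2 CPM and 80.9, 81.6 and 82.3 CPM (0.06 ± 0.06 SE, adjusted p = 0.689). Axin2, the classic feedback target of β-catenin, had 13.9, 12.98 and 13.8 CPM and 13.3, 14.98 and 16.02 CPM (adjusted p = 0.523). All 3 overlapped between groups. Of 18 Wnt targets tested 1 rose, Znrf3 (log2 fold change 0.35 ± 0.10 SE, adjusted p = 0.0362), which lost its call when any 1 of 5 of the 9 libraries was dropped, and 0 fell. In the list of GSK3 and its destruction complex, 2 of 19 members fell (10.5%, against 3.78% of all genes) and 0 rose, with a median log2 fold change of 0.06. Frat1, which encodes a protein that binds GSK3 and draws it away from Axin, had 8.33, 9.44 and 8.23 CPM in the controls and 2.79, 4.35 and 4.10 CPM in the CHIR libraries (log2 fold change -1.22 ± 0.16 SE, adjusted p = 0.000168), with no overlap. Its paralog Frat2 (log2 fold change -0.46 ± 0.12 SE, adjusted p = 0.0249) did not pass without CHIR replicate 1 or 2 or control replicate 1 or 2.

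Among immediate early genes, which answer growth signals within minutes, more rose than fell. Of 28 tested, 8 rose (28.6%, against 2.52% of all genes) and 3 fell (10.7%, against 3.78%), and the median log2 fold change was 0.12. Klf10, a zinc finger regulator induced early by TGF-β, had 112, 122 and 118 CPM in the controls and 174, 173 and 172 CPM with CHIR (log2 fold change 0.56 ± 0.05 SE, adjusted p = 5.76e-06). Fosl1, an AP-1 partner of Jun, had 15.9, 13.3 and 14.6 CPM and 24.9, 25.2 and 24 CPM (log2 fold change 0.76 ± 0.09 SE, adjusted p = 7.69e-05), and Egr1 had 4.63, 3.92 and 3.45 CPM and 7.88, 7.65 and 6.83 CPM (log2 fold change 0.90 ± 0.14 SE, adjusted p = 0.0011). In these 3 genes each CHIR library exceeded every control, although Egr1 was scarce. Ier3, Junb and Ier2 rose by log2 fold changes of 0.37, 0.38 and 0.28. Fos stayed low at 2.71, 3.05 and 3.55 CPM and 2.74, 4.24 and 3.17 CPM, and its groups overlapped (adjusted p = 0.802). Jun (log2 fold change 0.40 ± 0.09 SE, adjusted p = 0.014) did not pass without CHIR replicate 1 or 2 or control replicate 2 or 3. Ccn2, a target of YAP and of serum, fell from 116, 98.3 and 100 CPM to 78.8, 80.8 and 77.96 CPM (log2 fold change -0.41 ± 0.06 SE, adjusted p = 0.000825), and Klf6 fell (log2 fold change -0.41 ± 0.07 SE, adjusted p = 0.0012). Amotl2, another YAP target, fell too (log2 fold change -0.31 ± 0.06 SE). Of 24 Hippo factors and targets tested, 4 fell (16.7%, against 3.78% of all genes) and 1 rose (4.17%, against 2.52%). Of the 24, 15 had a log2 fold change above 0, and the median was 0.03, so most did not share the fall. The count of lower members was as low as 2 when 1 library was left out. Of 19 feedback genes of ERK signalling, Spry4 (log2 fold change 0.39 ± 0.06 SE, adjusted p = 0.000615) and Ereg, an EGF family ligand (log2 fold change 1.04 ± 0.18 SE, adjusted p = 0.00153), rose and 0 fell. Hbegf, another such ligand, rose from 34.9, 32.6 and 29.2 CPM to 50.4, 48.1 and 44.3 CPM (log2 fold change 0.56 ± 0.07 SE, adjusted p = 0.000184). With the feeder covariate Jun did not pass, and the other genes named here as changed did, among them Klf10 (adjusted p = 4.97e-05), Egr1 (0.0157) and Hbegf (0.00393).

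Targets of NF-κB and chemokines had the largest share of rising members among lists with 10 or more tested, 9 of 25 (36.0%, against 2.52% of all genes). Of these 25, 0 were lower, and the median log2 fold change was 0.22. Ccl7, a chemokine for monocytes, had 38.5, 35.1 and 34.2 CPM in the controls and 60.96, 58.97 and 54.1 CPM in the CHIR libraries (log2 fold change 0.69 ± 0.07 SE, adjusted p = 7.25e-06). Ptgs2, the inducible prostaglandin synthase, had 53.5, 60.4 and 54.2 CPM and 87.1, 93.4 and 77.2 CPM (log2 fold change 0.62 ± 0.08 SE, adjusted p = 0.000124). Neither overlapped between groups. Ch25h, a cholesterol hydroxylase, rose from 4.24, 3.58 and 4.14 CPM to 9.17, 8.37 and 7.82 CPM (log2 fold change 1.08 ± 0.16 SE, adjusted p = 0.000548). Csf1 and Lif, which encode cytokines, rose by 0.43 ± 0.06 SE and 0.73 ± 0.13 SE on the log2 scale. Fibroblasts also make several of these factors, and the medians of the feeder marker sums were 2463 CPM in the controls and 3010 CPM in the CHIR libraries. Of the 10 feeder markers 9 had a log2 fold change above 0, with a median of 0.16, and 1, Col1a1, passed. The number of feeder markers that passed was 5 without CHIR replicate 3 and 0 without CHIR replicate 1 or 2 or control replicate 2 or 3. With the feeder covariate the list had 5 higher members, and Ccl7 (adjusted p = 0.000137), Ptgs2 (0.00245), Ch25h (0.00902), Csf1 (0.0092) and Lif (0.0199) passed. Without control replicate 2 the count was 6.

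Stress pathways gave a few members each. Ddit3, the CHOP factor of the integrated stress response, had 6.75, 7.12 and 6.85 CPM in the controls and 10.7, 11.5 and 11.04 CPM with CHIR (log2 fold change 0.68 ± 0.11 SE, adjusted p = 0.0014), and Ppp1r15a, which ends that response, rose by 0.36 ± 0.06 SE on the log2 scale. Ddit3 has another row in the table, which the filter removed. Of 26 genes tested in the stress response list, Ddit3 and Ppp1r15a were the 2 that passed. Hmox1, the haem oxygenase induced by NRF2, rose from 119, 110 and 114 CPM to 147, 158 and 145 CPM (log2 fold change 0.39 ± 0.05 SE, adjusted p = 0.000346). Keap1, which marks NRF2 for degradation, fell from 23.1, 21.4 and 22.7 CPM to 18.2, 15.6 and 16.1 CPM (log2 fold change -0.43 ± 0.08 SE, adjusted p = 0.00272). In all, 3 of 16 members of the NRF2 list rose and 1 fell, with 1 higher without CHIR replicate 2, control replicate 1 or control replicate 2. Of 16 HIF targets 2 were higher and 1 lower, and Vegfa rose by 0.36 ± 0.07 SE. Of 24 p53 targets 3 were higher and 1 lower, and the death receptor gene Tnfrsf10b rose by 0.41 ± 0.08 SE. With the feeder covariate 1 HIF target and 1 p53 target were higher and 0 lower. Among 19 heat shock genes edgeR called 1, Bag3 (log2 fold change 0.36 ± 0.07 SE, adjusted p = 0.00698), and DESeq2 called 2. The count was also 2 without BRD0705 replicate 3, CHIR replicate 1 or control replicate 1, and the call of Bag3 ended with the feeder covariate (adjusted p = 0.0653).

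Several genes that insulin represses through Foxo factors fell. Of 21 Foxo factors and insulin-responsive genes tested, 7 fell (33.3%, against 3.78% of all genes) and 1 rose (4.76%, against 2.52%). The median log2 fold change was -0.09. Irs2, the adaptor of the insulin receptor, had 12.5, 13.3 and 12.3 CPM in the controls and 6.93, 7.43 and 7.27 CPM with CHIR (log2 fold change -0.82 ± 0.10 SE, adjusted p = 0.000101). Fbxo32, a ubiquitin ligase gene that Foxo factors induce in wasting muscle, had 6.26, 5.18 and 5.12 CPM and 3.19, 2.31 and 2.73 CPM (log2 fold change -1.002 ± 0.16 SE, adjusted p = 0.00129). Both sets of values were separate. Cited2, Ccng2 and Pnrc1 fell by log2 fold changes of -0.35, -0.46 and -0.28. Txnip, the list's higher member, had 376, 382 and 324 CPM and 435, 464 and 426 CPM (log2 fold change 0.29 ± 0.06 SE, adjusted p = 0.00847) and did not pass without CHIR replicate 2 or with the feeder covariate. Foxk2, a forkhead factor outside this list, fell from 69.3, 64.4 and 74.1 CPM to 42.4, 39.8 and 43.3 CPM (log2 fold change -0.73 ± 0.06 SE, adjusted p = 2.34e-06). Of 30 glycogen and glycolysis genes 0 passed edgeR's test, 2 had an unadjusted p under 0.05, and DESeq2 and limma voom called 0.

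Of core pluripotency genes, about the same share passed as of all genes. Esrrb, a naive state receptor, had 876, 878 and 905 CPM in the controls and 1029, 1023 and 1049 CPM in the CHIR libraries (log2 fold change 0.22 ± 0.05 SE, adjusted p = 0.00734). It was the 1 member to pass of 15 core pluripotency genes (6.67%, against 6.3% of all genes). DESeq2 called 3 of the 15, as did edgeR without BRD0705 replicate 3. Nanog had 510, 574 and 564 CPM and 559, 541 and 546 CPM (adjusted p = 0.991), Pou5f1 981, 940 and 915 CPM and 866, 877 and 931 CPM (adjusted p = 0.379), and Sox2 223, 245 and 236 CPM and 223, 222 and 230 CPM (adjusted p = 0.553). These 3 overlapped between groups. Klf2 and Tfcp2l1 did not pass (adjusted p = 0.919 and 0.612), and Klf4 (log2 fold change 0.19 ± 0.05 SE, adjusted p = 0.0369) lost its call without CHIR replicate 2 or 3 or any 1 control library. Socs2, a feedback gene of LIF and STAT3 signalling, rose (log2 fold change 0.31 ± 0.05 SE, adjusted p = 0.00181). Of 19 formative and primed genes 4 fell (21.1%, against 3.78% of all genes) and 0 rose. They were led by Sox4 at 47.5, 50.8 and 49.97 CPM and 36.2, 36.6 and 34.8 CPM (log2 fold change -0.46 ± 0.06 SE, adjusted p = 0.000115). The formative count was 1 without control replicate 2 or 3 and with the feeder covariate.

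Several members of the Myc network fell. Of 13 members tested in the Myc, Max and Mxd network, 4 fell (30.8%, against 3.78% of all genes) and 0 rose, with a median log2 fold change of -0.11. Mycn, a relative of Myc expressed in embryonic cells, had 159, 159 and 152 CPM in the controls and 127, 130 and 129 CPM with CHIR (log2 fold change -0.28 ± 0.05 SE, adjusted p = 0.00205). Mycl had 35.9, 32.7 and 32.97 CPM and 22.2, 22.5 and 27.01 CPM (log2 fold change -0.50 ± 0.09 SE, adjusted p = 0.00205). Neither overlapped between groups. Myc itself had 60.3, 51.2 and 58.4 CPM and 48.3, 46.7 and 48 CPM (log2 fold change -0.25 ± 0.07 SE, adjusted p = 0.0476) and lost its call when any 1 of 7 of the 9 libraries was dropped. It also lost the call with limma voom, with median-of-ratios factors, on the deposited normalized values, without rows of doubled symbols and with the feeder covariate (adjusted p = 0.0537). The Myc network count was 2 without CHIR replicate 2, CHIR replicate 3, control replicate 1 or control replicate 3, and with the feeder covariate.

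Promoters of the rising genes more often held the palindromic E-box CACGTG, which Myc and Max, the lysosomal regulators TFEB and TFE3, USF and clock factors can bind. The letters were searched in RefSeq windows (GRCm38.p6) from 250 bases before to 50 bases after the start of protein-coding genes. The motif reads the same on both strands. It was in 54 of 286 windows of higher genes (18.9%), 35 of 408 of lower genes (8.58%) and 1107 of 11041 of all tested genes (10.03%). By mean level, the shares were 4 of 34 higher genes (11.8%) against 8.10% of uncalled genes under 4 on the log2 CPM scale, 26 of 129 against 349 of 3171 from 4 to 6, and 19.5% against 11.6% at 6 and over. The difference was smallest, and the higher genes fewest, at the lowest level. Median GC content of the windows was 63.7% for higher and 60.7% for uncalled genes, and its part in the shares was not tested. Windows were found for 81.2% of higher, 80.8% of lower and 82.2% of uncalled protein-coding genes. Over the alternatives tried, the share among higher genes was 16.4 to 21.2%; no test of the difference was made. The stretches below, from the 6 rising genes of smallest p with an E-box wholly before the start, show the motif in capitals with its flanks of up to 30 bases.
Tnpo2: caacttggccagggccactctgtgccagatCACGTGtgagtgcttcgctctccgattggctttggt
Dpp7: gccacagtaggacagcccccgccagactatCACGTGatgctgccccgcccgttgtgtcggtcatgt
Vps26a: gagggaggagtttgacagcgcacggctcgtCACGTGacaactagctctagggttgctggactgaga
Rragc: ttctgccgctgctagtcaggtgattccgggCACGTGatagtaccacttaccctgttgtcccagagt
Sc5d: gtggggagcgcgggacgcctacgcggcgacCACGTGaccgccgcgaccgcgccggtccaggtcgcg
Trpm7: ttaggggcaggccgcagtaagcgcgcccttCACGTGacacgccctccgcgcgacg
They lie at chr8:85036747-85036812, plus strand; chr2:25356370-25356435, minus strand; chr10:62486952-62487017, minus strand; chr4:123917291-123917356, plus strand; chr9:42264363-42264428, minus strand; and chr2:126876262-126876316, minus strand. The motif begins 116, 73, 182, 112, 98 and 25 bases before the start, in that order. A match of letters is a description of the window and not a site of binding.

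These 6 genes are a part of the 54 higher genes with the E-box and were picked by p, so their functions do not describe the 54. Tnpo2, a nuclear import receptor, had 133, 131 and 131 CPM in the controls and 179, 173 and 170 CPM with CHIR (log2 fold change 0.40 ± 0.05 SE, adjusted p = 0.000133). Dpp7, a lysosomal peptidase, had 15.5, 15.1 and 17 CPM and 24.3, 20.3 and 21.7 CPM (log2 fold change 0.48 ± 0.09 SE, adjusted p = 0.0026). Rragc, a GTPase that brings mTORC1 to the lysosome, had 39.9, 37.3 and 36.9 CPM and 49.7, 46.8 and 45.9 CPM (log2 fold change 0.32 ± 0.06 SE, adjusted p = 0.00375). All 3 were higher in every CHIR library than in any control. Vps26a of the retromer, the ion channel gene Trpm7 and the sterol desaturase Sc5d rose by log2 fold changes of 0.32, 0.30 and 0.32. Clcn6, a chloride transporter of endosomes with the E-box in its window, rose by 0.31 ± 0.06 SE and was chosen for mention after its values were seen. In the list of lysosome and autophagy genes 1 of 30 members passed as higher, Ctsa, and 1 as lower, Mitf, with a median log2 fold change of 0.07. Ctsa did not pass without CHIR replicate 2 or 3 or control replicate 2 or 3, Mitf did not when any 1 of 7 of the 9 libraries was dropped, and neither passed with the feeder covariate. Of 30 sterol and fatty acid synthesis genes 5 rose (16.7%, against 2.52% of all genes) and 0 fell. Cyp51 among them had 103, 103 and 109 CPM and 131, 122.6 and 128 CPM (log2 fold change 0.28 ± 0.05 SE, adjusted p = 0.00436). Without CHIR replicate 3, 2 sterol genes rose. The clock repressor Bhlhe40, which itself binds E-boxes, rose from 94.2, 93.4 and 90.6 CPM to 123.2, 144 and 135 CPM (log2 fold change 0.53 ± 0.06 SE, adjusted p = 5.31e-05).

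The same windows were searched for other motifs. The TCF/LEF letters CTTTGAT were in 2.45% of windows of higher genes and 1.47% of lower genes, against 2.44% over all tested genes. The cAMP response element TGACGTCA was in 3.85% and 2.45%, against 3.15% of all, and the AP-1 letters TGAGTCA or TGACTCA in 3.85% and 2.70%, against 3.46%. The TATA box TATAAA was in 5.94% and 7.60%, against 7.15% of all. Another E-box, CAGCTG, was in 13.6% of higher and 17.6% of lower windows, against 15.1% of all. The SP/KLF letters GGGGCGGGG were in 23.4% and 17.9%, against 22.02% of all. The CArG box, which serum response factor binds, was in 1.05% and 0.735%, against 1.24%. Both strands were searched. That these letters are missing from a window says nothing of the factors.

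**Figure D3:**
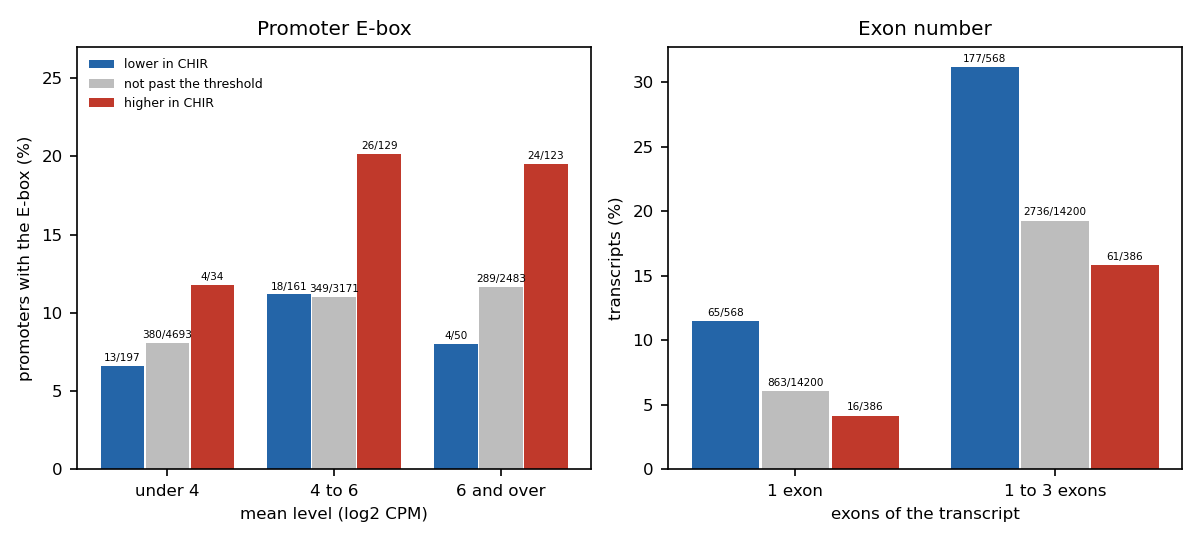
Left, the percentage of promoter windows with the E-box on the y axis, by mean level (log2 CPM) on the x axis; right, the percentage of transcripts with 1 exon or 1 to 3 exons. Bars are lower, uncalled and higher genes with counts above them; the higher genes have the tallest E-box bars at each level (20.2% from 4 to 6), and the lower genes the tallest exon bars.

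Further lists, some of them of housekeeping genes, are set beside 2.52% higher and 3.78% lower over all genes. Several of their shares were close to these. Of 86 cytosolic ribosomal proteins 3 fell (3.49%) and 0 rose. Of 77 mitochondrial ribosomal proteins 2 rose (2.60%) and 0 fell, and of 84 nuclear oxidative phosphorylation subunits 1 rose (1.19%) and 0 fell. These counts were unsteady: 0 cytosolic ribosomal proteins fell without control replicate 1 and 6 with library size only, 1 mitochondrial ribosomal protein rose without CHIR replicate 2, CHIR replicate 3 or control replicate 2, and 0 oxidative phosphorylation subunits rose without CHIR replicate 3, control replicate 1 or control replicate 2. Of 38 proteasome subunits 0 passed edgeR's test, 4 had an unadjusted p under 0.05, and DESeq2 and limma voom called 0. Of 28 Hox genes 0 passed, with 0 at an unadjusted p under 0.05 and 0 by DESeq2 or limma voom. Of 13 NFAT-related regulators 0 passed; 4 had an unadjusted p under 0.05, DESeq2 called 1 and limma voom 0. Transcripts of the mitochondrial genome had a median log2 fold change of 0.26, and 3 of 13 passed as higher (23.1%). The first of these, mt-Nd1, had 3100, 2939 and 3098 CPM in the controls and 3997, 3774 and 3927 CPM with CHIR (log2 fold change 0.36 ± 0.08 SE, adjusted p = 0.0113). It did not pass without control replicate 2, which left 1 higher, or with the feeder covariate. Of 32 genes of G2 and mitosis 4 fell (12.5%) and 0 rose. The count of those that fell was 0 without CHIR replicate 1, control replicate 2 or control replicate 3, or with the feeder covariate. Among ubiquitin ligase genes 12 of 229 fell (5.24%) and 5 rose (2.18%). Trim56, at 14.5, 13.4 and 12.8 CPM and 8.57, 8.09 and 8.04 CPM, was the lowest by p (log2 fold change -0.72 ± 0.10 SE, adjusted p = 0.000447). Without control replicate 2, 4 ubiquitin ligase genes fell, and without CHIR replicate 2, 0 rose. With the feeder covariate 7 fell and 2 rose.

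**Figure D4:**
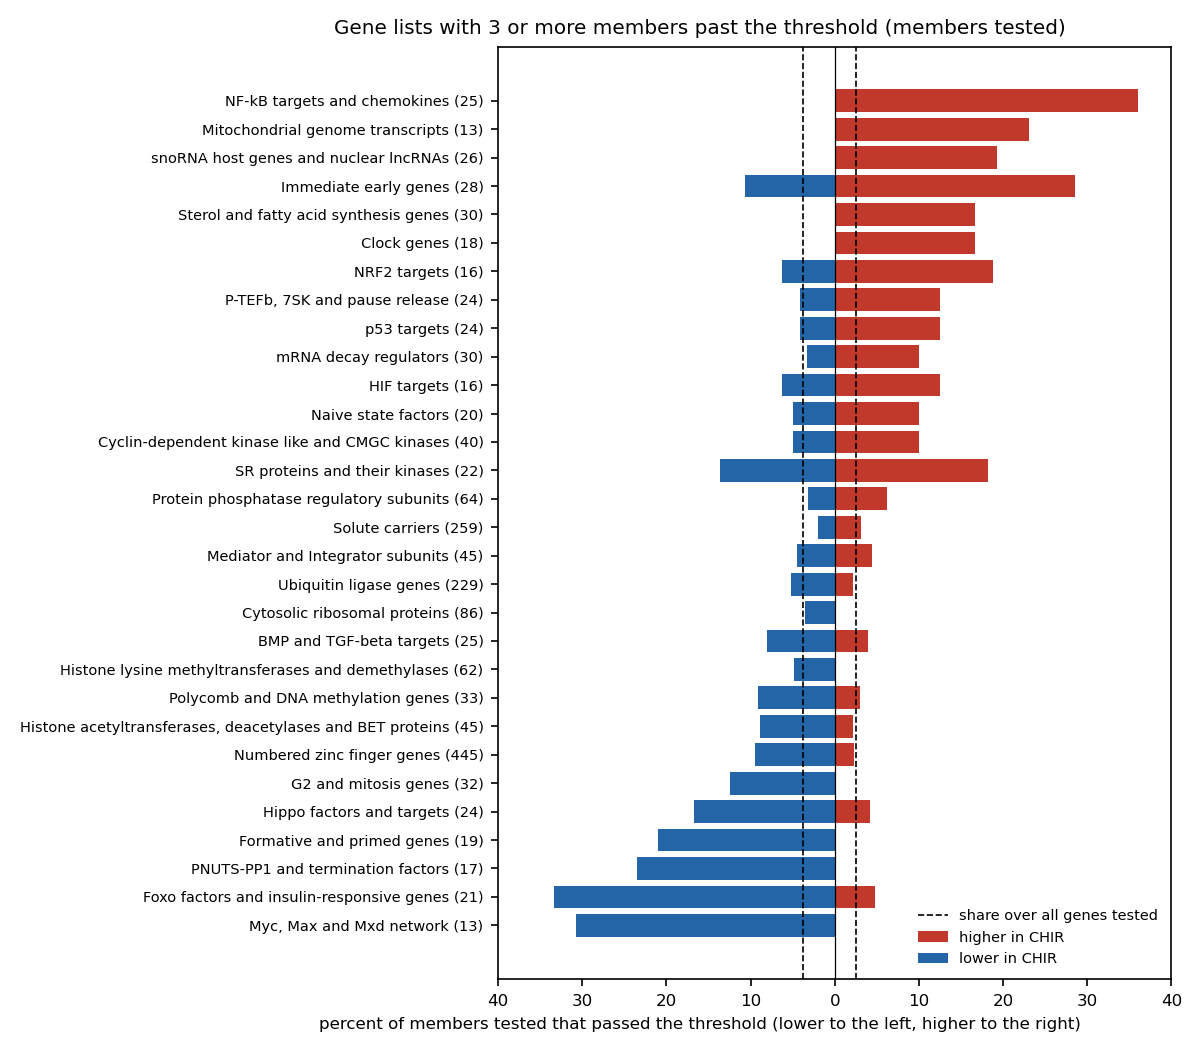
For each gene list with 3 or more members past the threshold, the percentage of tested members that were higher (red, right) or lower (blue, left) in CHIR, with the number tested in brackets. Dashed lines mark the shares over all genes, 2.52% higher and 3.78% lower; NF-κB targets reach furthest right and Foxo and insulin-responsive genes furthest left.

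The BRD0705 libraries allow a direct comparison of CHIR with an inhibitor selective for GSK3α. The doses of both are not given, so the contrast compares these treatments and not matched inhibition. CHIR and BRD0705 differed at 1194 genes, 7.77% of those tested. Because this contrast and that with the controls share the CHIR libraries, values are set side by side only. The CHIR libraries were lower than the BRD0705 libraries in Ppp1r10, Dido1, Zc3h4 and Pcf11: Ppp1r10 by -1.76 ± 0.06 SE on the log2 scale (adjusted p = 4.16e-12), Dido1 by -1.47 ± 0.06 SE (6.33e-12), Zc3h4 by -0.84 ± 0.05 SE (1.34e-08) and Pcf11 by -0.57 ± 0.06 SE (1.88e-05). Against the controls BRD0705 moved these 4 genes by 0.21, 0.07, 0.10 and 0.02, and none passed. Hexim1 (-0.44 ± 0.07 SE, adjusted p = 0.000443), Ccnt2 (0.34 ± 0.06 SE, adjusted p = 0.00171), Irs2 (-0.79 ± 0.10 SE, adjusted p = 0.000129), Frat1 (-0.96 ± 0.16 SE, adjusted p = 0.0013), Nopchap1 (0.80 ± 0.06 SE, adjusted p = 3.77e-07) and Rbm14 (0.61 ± 0.06 SE, adjusted p = 2.41e-06) also differed.

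Several genes that were higher with CHIR than in the controls did not pass in the direct contrast. Ccl7 had 54.5, 50.2 and 50.2 CPM with BRD0705, above every control, and CHIR differed from BRD0705 by 0.17 ± 0.07 SE, adjusted p = 0.126. Csf1 had 108, 103 and 102 CPM with BRD0705 and a difference of -0.13 ± 0.06 SE, adjusted p = 0.228. Both rose with BRD0705 against the controls (adjusted p = 0.00134 and 0.000569). Bhlhe40 (0.12 ± 0.06 SE, adjusted p = 0.238), Junb (0.05 ± 0.07 SE, adjusted p = 0.694), Klf16 (0.17 ± 0.05 SE, adjusted p = 0.0604), Hmox1 (0.10 ± 0.05 SE, adjusted p = 0.308) and Cyp51 (-0.01 ± 0.05 SE, adjusted p = 0.923) likewise did not pass between the compounds, and each rose with BRD0705 against the controls (adjusted p = 0.00474, 0.0241, 0.0106, 0.0136 and 0.0125). A difference that misses the threshold does not show that the compounds act alike on them. The feeder marker sums were 2989 to 3066 CPM with BRD0705, above the 2394 to 2904 CPM of the controls. Their part in the rises with BRD0705 was not tested. Klf10 (0.34 ± 0.05 SE, adjusted p = 0.000575) and Ptgs2 (0.44 ± 0.08 SE, adjusted p = 0.00178) were higher with CHIR than with BRD0705. Of the 4 called members of the PNUTS-PP1 and termination list, 4 also passed against BRD0705. Of the 9 in the NF-κB list 4 did, and of the 5 in the sterol list 0. The CHIR libraries enter both contrasts, which favours a second call, and no share over all called genes is given for comparison. These counts therefore only describe the lists. Rprd1a lost its call against BRD0705 without BRD0705 replicate 2. Lif lost its call without BRD0705 replicate 1 or 3 or CHIR replicate 2 or 3.

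**Figure D5:**
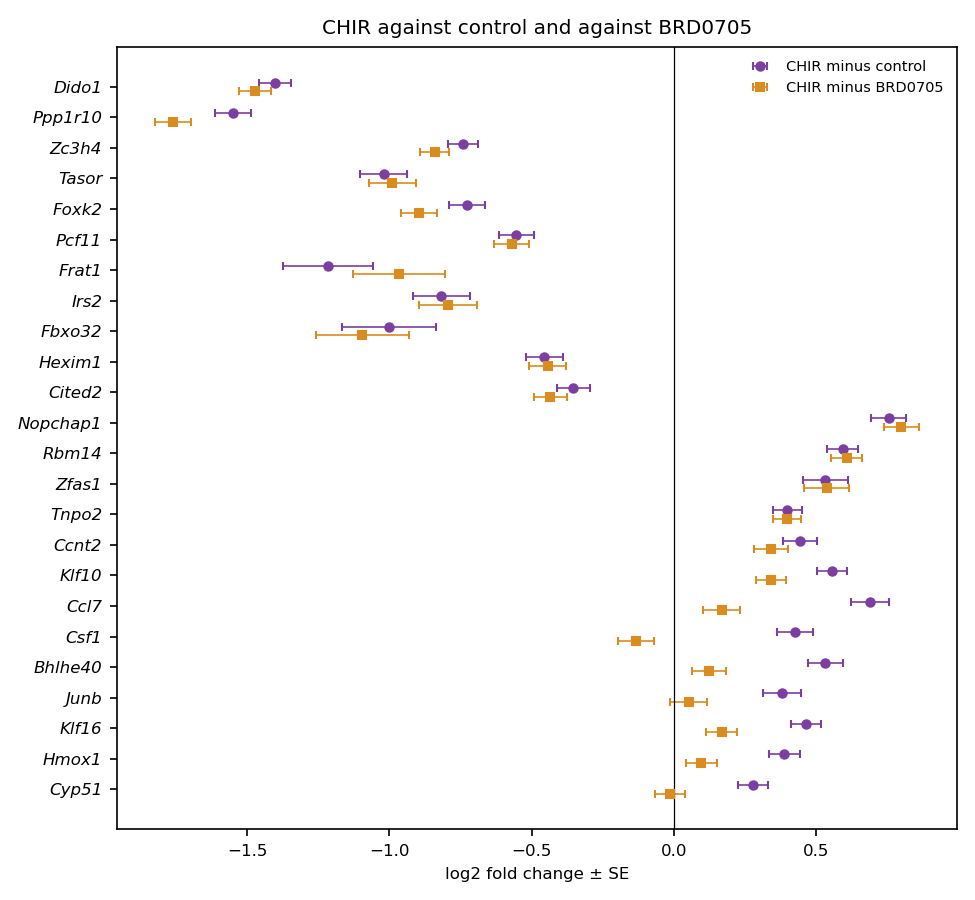
Log2 fold change on the x axis for 24 genes, as CHIR minus control (circles) and CHIR minus BRD0705 (squares), with SE bars. For the genes from Dido1 to Klf10 both values lie on the same side of 0 and away from it, and for Csf1, Junb and Cyp51 the value against BRD0705 lies near 0.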

How the data were processed

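RNA from 9 libraries, 3 each of control, BRD0705 and CHIR, was sequenced by the authors. The authors deposited raw counts per gene symbol in whole numbers, and a normalized table, a signal equal to the counts divided by 1 factor per library. RSEM, DESeq2 and mm10 are named, per the submitters' processing notes; use of strand is not given in the sources used here, so overlapping and antisense genes cannot be told apart. The labels name both polyA RNA and ribosomal RNA depletion. Differences were called by edgeR 4.0.16 (R 4.3.3): filterByExpr (minimum count 10), TMM scaling, all 9 libraries, 3 group means, 6 residual degrees of freedom, 2-sided quasi-likelihood test, Benjamini-Hochberg adjusted p under 0.05. CPM used TMM-scaled library sizes. The code was tested on simulated data. RefSeq positions (GRCm38.p6) matched 96.6% of tested genes by symbol. GC content, transcript length and exons came from GENCODE, matched by symbol for 98.6%. Promoter counts leave out genes on chromosome 18.

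The members, the 56 gene lists, the 7 marker lists and the named genes were chosen with earlier results of these data known. Genes named were, among called genes whose log2 CPM averaged 1 or more and whose groups did not overlap in CPM, the 15 highest and 15 lowest and the 10 higher and 10 lower of smallest p; up to 6 called members per list and direction; and 18 fixed genes. From these the text takes mainly genes that passed in all 9 fits leaving out 1 library. Clcn6 and Rbm15, among others, were added after their values were seen. Alternatives were the replicate block, median-of-ratios factors, library size only, other filters, only the 6 libraries compared, DESeq2 1.42.0, limma voom (limma 3.58.1), limma on the normalized table with 1 or 0.1 added before taking log2, the mean log2 CPM of 10 feeder markers as a covariate, and each library left out. A correction for GC content and length (splines, 5 degrees of freedom each), also with the block, leaving out doubled symbols, and every promoter window in place of the first were added after seeing the data.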

Additional observations from a re-analysis of the deposited data

How the results depend on the processing

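Counts of genes past the threshold in CHIR against control moved by over 1.5 times from 968 when the feeder marker level was a covariate, to 437 (166 higher, 271 lower); 405 of these were called in both fits with the same direction. The higher count, 387, was 252 with library size only and 602 without the low-count filter. The 77 genes changed by 1 or more on the log2 scale became 127 without the filter, 43 at a mean CPM of at least 1, 32 with DESeq2, and 34 with the feeder score. Leaving out 1 library gave 514 to 1070 genes, 212 to 488 higher, 300 to 582 lower and 40 to 77 of the larger changes; against BRD0705 it gave 616 to 1313, from 1194. Where this left 2 libraries in a group, their spread was pooled with the other groups. All other alternatives stayed within 1.5 times. Of 218 genes named under the rule and past the threshold, 107 kept their call in each alternative that tested them and 0 changed sign; the feeder score ended 88 calls. Library size only and DESeq2 moved the share of higher genes among the calls from 40.0% to 26.4% and 50.5%.

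The replicate numbers did not pair the libraries: over the 9 same-numbered pairs the deviations from group means correlated at -0.09 to 0.08. With the replicate block 973 genes passed, 406 of them higher. Depth limits the scarce genes: fold changes under about 1 CPM rest on few counts, and the feeder content, the strand of the reads and the doses cannot be separated further with these tables.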
